A study of Mus musculus with 6 samples.

Results

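The protein-coding genes of the mitochondrial ribosome were examined in mouse liver, in hepatic mRNA from 6 libraries. They were taken as all rows of the deposited expression table whose symbol is Mrpl or Mrps followed by a number and, where present, 1 letter, the rule by which mouse genes for mitochondrial ribosomal proteins are named. The rule found 77 of 48699 rows, each symbol once, on 17 chromosomes with 10 genes on chromosome 11. Of these genes, 50 were counted in the large subunit, among them Mrps18a and Mrps30 despite their symbols, and 27 by symbol in the small subunit. Whether every symbol, that of Mrps36 included, names a protein of the ribosome was not checked. All 77 passed the filter on low values. The study compared 3 control livers with 3 livers that lack the bile acid receptor FXR (gene Nr1h4) and the orphan receptor SHP (gene Nr0b2) in hepatocytes. All 6 came from male C57BL/6 mice aged 10 to 12 weeks and fasted for 8 to 10 hours overnight, and the table's column names give the diet of both groups as chow. Controls were Fxr fl/fl Shp fl/fl, so the controls carry both floxed alleles, and the double knockouts were hepatocyte-specific Fxr-/- Shp-/-. The labels do not name the Cre driver. The libraries are numbered replicates, and no label states that each is a separate animal, so p-values measure the spread between these samples. The members were selected by symbol, but the family was picked on its fold changes between these same 6 libraries, so those fold changes are given as a description and no count over them is offered as evidence.

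Mitochondria carry their own ribosomes, which translate only the few mRNAs of mitochondrial DNA, all for subunits of the respiratory chain and ATP synthase. Their rRNAs are encoded in mitochondrial DNA, whereas every protein of the particle is encoded in the nucleus, translated in the cytosol and imported. Many of the proteins have a counterpart in bacteria, and others were added in the mitochondrial lineage. In liver, nuclear genes for mitochondrial proteins, those of the mitoribosome included, are known targets of the transcription factors NRF1, GABP (an ETS factor) and YY1 and their coactivators.

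Most of the 77 mRNAs stood at lower levels in the double knockout livers, by a modest and similar amount. On the log2(FPKM + 1) scale (FPKM is fragments per kilobase of transcript and per unit of library depth), 74 of 77 had a negative difference of double knockout minus control. The median log2 fold change was -0.39, the middle part of the genes (first to the third quartile) lay between -0.47 and -0.27, and the full range was -0.78 to 0.09. Over all 11810 genes tested, 50.8% were negative and the median was -0.01. No single member passed the threshold, an adjusted p under 0.05 in limma with Benjamini-Hochberg adjustment over all genes tested, against 0.313% of all genes in either direction and 0.144% lower. The lowest limma adjusted p among members was 0.160, for Mrpl21. An unadjusted limma p under 0.05 was found for 28 members, all 28 lower, against 7.98% of all genes lower. That number was 8 without double knockout replicate 2, 17 without double knockout replicate 3 and 10 without control replicate 2. In 39 members every knockout library was below every control library (11.6% of all genes) and in 0 every knockout was above every control (11.3%). With 3 libraries against 3, an exact permutation test of 1 gene cannot go below 0.1.

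**Figure D1:**
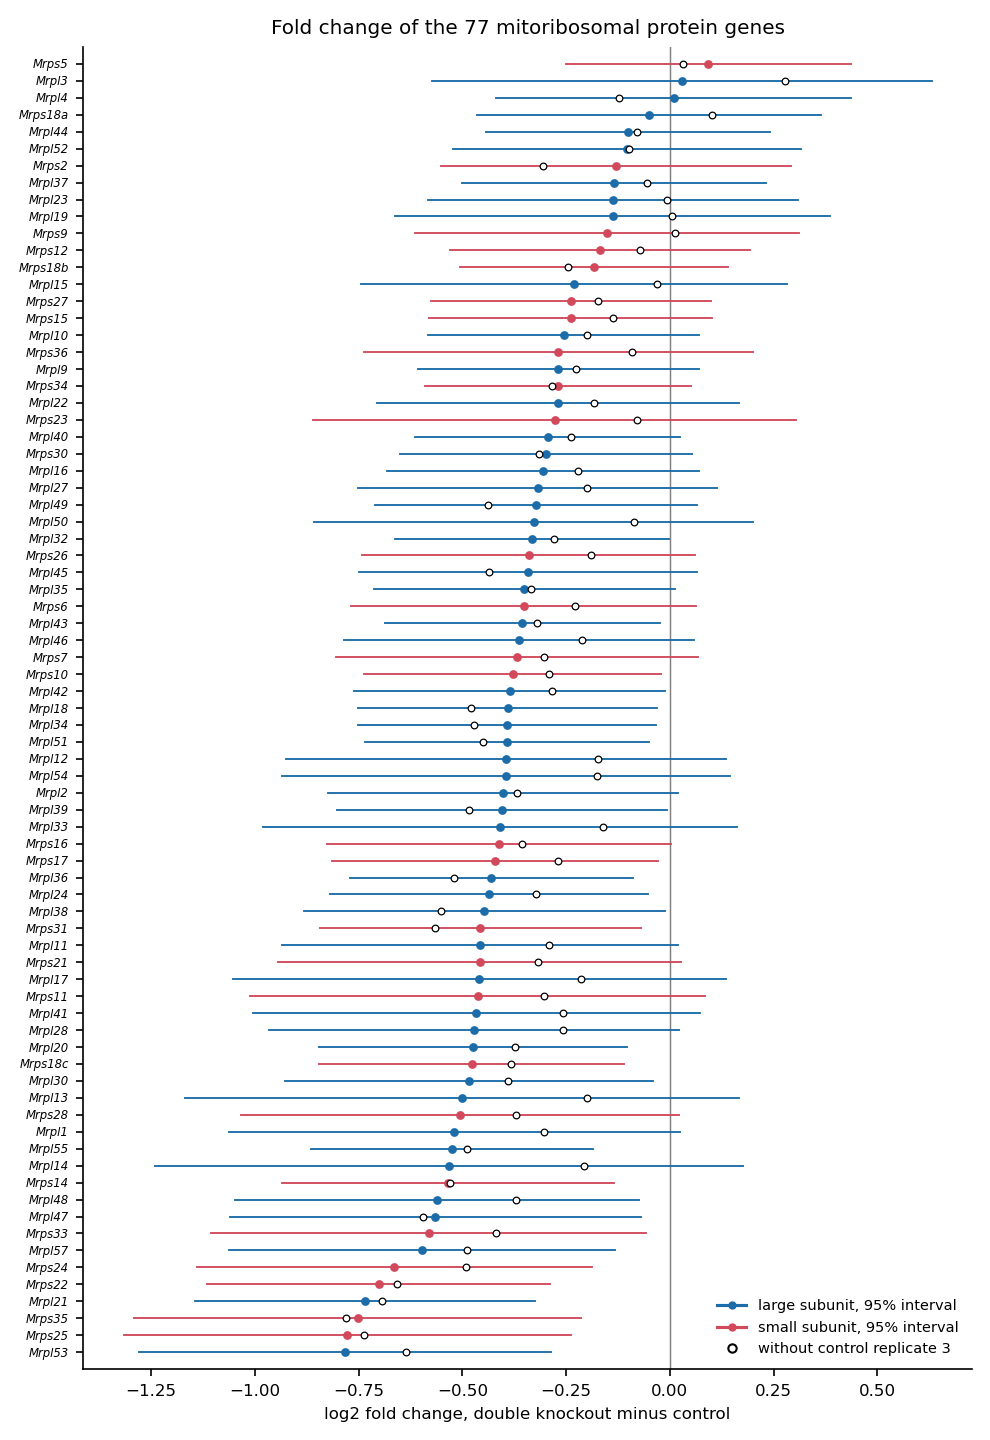
Log2 fold change (double knockout minus control, log2(FPKM + 1) scale) of each of the 77 genes, filled circles with 95% limma intervals for 6 libraries and open circles without control replicate 3. Of the filled circles 74 lie left of 0, and Mrpl4, Mrpl3 and Mrps5 lie at 0.01, 0.03 and 0.09.

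The summed FPKM of the 77 genes, which counts abundant genes most, was 2808, 3218 and 3717 in control replicates 1 to 3. In the double knockouts it was 2564, 2181 and 2679. The 3 knockout sums were all below the 3 control sums, and the highest knockout sum was 2679 against a lowest control sum of 2808. The means were 3248 ± 455 and 2475 ± 261 FPKM (SD, n = 3 each), 23.8% lower in the knockouts. Both subunits showed this: 2245 ± 337 and 1717 ± 181 FPKM for the large and 1003 ± 120 and 758 ± 80.1 FPKM for the small subunit (SD, n = 3 each). As a share of the FPKM of all genes, the 77 genes took 0.400%, 0.408% and 0.442% in controls and 0.373%, 0.357% and 0.384% in knockouts, 10.8% lower in the mean. The difference in share is smaller than that in FPKM because the FPKM of all genes also summed to less in the knockouts, as given with the scalings further on. In bulk tissue, fewer cells of a type and less RNA per cell cannot be told apart.

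The libraries within a group were not alike. Among the 77 genes, 52 had their highest value in control replicate 3 and 61 their lowest in double knockout replicate 2. The median deviation from the control mean was -0.18, 0.01 and 0.19 (log2) in controls 1 to 3 and -0.30, -0.53 and -0.28 in knockouts 1 to 3. The median step from control replicate 1 to control replicate 3 was 0.39, as large as the median difference between the groups. From control replicate 1 to double knockout replicate 3 it was -0.11, with 53 genes lower and 24 higher. Without control replicate 3, which also stood apart in immediate-early genes, 72 members were negative (51.9% of all genes) and the median was -0.28 (all genes -0.02). In that fit 0 members passed the threshold (2.05% of all genes in either direction, 0.746% lower), 22 had an unadjusted limma p under 0.05 and were lower (11.9% of all genes), and 19 of these were among the 28 above. Every knockout was below control replicates 1 and 2 in 44 members (23% of all genes).

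**Figure D2:**
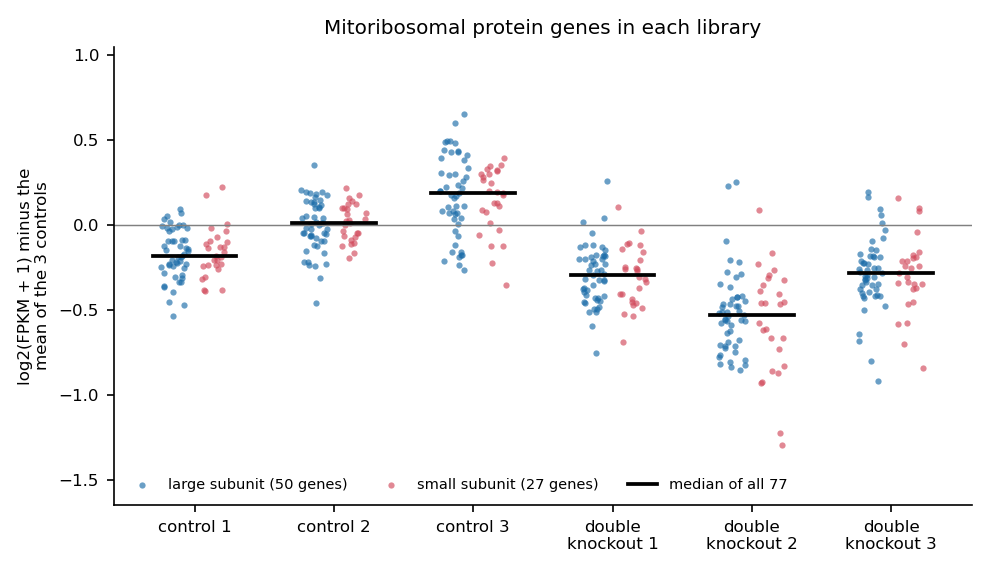
Each point is 1 gene in 1 library, as its log2(FPKM + 1) minus the mean of the 3 controls, with large subunit genes in blue and small subunit genes in red and the bar at the median of all 77. The medians run from -0.53 in double knockout replicate 2 to 0.19 in control replicate 3.

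The letters before the members' start sites are shown, with the motifs of the factors named above. A link between these motifs and the fold changes was not tested. RefSeq windows on GRCm38.p6 (300 bases, 250 before and 50 after a start) were matched by symbol for 68 of the 77 genes, 74 windows in all. The 6 stretches below, of 150 bases each and ending before the gene start in both RefSeq and GENCODE, pair a gene with a low fold change and a gene nearer 0 for the ETS motif (Mrps22 and Mrpl52) and for the NRF1 motif (Mrpl57 and Mrpl44). These pairs were chosen for their fold changes, so the difference within a pair says nothing about its motif. The windows of Mrpl57 and Mrpl52 also hold an ETS match that is not within the stretch shown. Mrpl12, the stalk protein that translation factors contact, and Mrps11 (chosen after its values were seen) stand for the NRF1 and YY1 motifs in addition. The stretch of Mrps11 lies within another member, Mrpl46, on the opposite strand. Capitals mark a match on either strand to CCGGAAG (ETS), the half-sites GCGCA and GCGC with 1 base of any kind between them (NRF1) or AAGATGGCG (YY1). The positions are chr9:98601680-98601829 (minus strand) for Mrps22, chr14:54426759-54426908 (plus) for Mrpl52, chr14:57826084-57826233 (plus) for Mrpl57, chr1:79775868-79776017 (plus) for Mrpl44, chr11:120484463-120484612 (plus) for Mrpl12 and chr7:78782969-78783118 (plus) for Mrps11.
Mrps22: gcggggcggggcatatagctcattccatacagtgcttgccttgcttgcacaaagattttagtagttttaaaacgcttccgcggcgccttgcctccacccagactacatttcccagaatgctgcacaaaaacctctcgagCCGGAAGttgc
Mrpl52: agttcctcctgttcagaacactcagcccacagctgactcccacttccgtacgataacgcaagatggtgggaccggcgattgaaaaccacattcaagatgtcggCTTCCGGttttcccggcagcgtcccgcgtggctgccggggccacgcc
Mrpl57: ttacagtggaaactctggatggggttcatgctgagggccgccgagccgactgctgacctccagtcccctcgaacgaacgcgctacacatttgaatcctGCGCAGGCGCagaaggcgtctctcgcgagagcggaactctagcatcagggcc
Mrpl44: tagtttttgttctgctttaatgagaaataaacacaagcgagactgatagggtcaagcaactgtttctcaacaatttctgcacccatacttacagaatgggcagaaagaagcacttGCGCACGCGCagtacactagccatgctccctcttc
Mrpl12: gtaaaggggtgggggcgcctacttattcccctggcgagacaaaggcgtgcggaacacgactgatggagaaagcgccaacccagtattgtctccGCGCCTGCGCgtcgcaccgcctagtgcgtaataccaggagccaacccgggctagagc
Mrps11: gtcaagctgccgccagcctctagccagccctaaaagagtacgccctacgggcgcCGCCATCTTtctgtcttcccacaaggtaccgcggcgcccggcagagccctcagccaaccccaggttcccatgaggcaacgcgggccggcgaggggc

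The ETS motif was in 25 of the 74 windows (33.8%), against 8.86% of all 32851 RefSeq windows and 17.5% of the 11318 windows of tested genes. The NRF1 motif was in 13 windows (17.6%), against 4.60% of all and 10.2% of tested ones. The YY1 motif, whose first letters can overlap the last of the ETS motif, was in 8 windows (10.8%), against 1.40% and 3.14%. At least 1 of these motifs was found for 40 of the 68 genes, and the same share among tested genes was not counted. The windows had a median of 21.5 CpG, close to the 20 in windows of tested genes and above the 7 in all windows. An FXR inverted repeat, GGTCA and TGACC with 1 base between them, was in 0 member windows, in 0.0396% of all windows and in 0.0353% of tested ones, too few for a comparison. The LRH-1 motif CAAGGTCA, bound by the receptor that SHP represses, was in 2 windows (2.70%, against 1.56% of all and 1.122% of tested ones), and TATAAA was in 5 (6.76%, against 13.6% of all and 7.76% of tested ones). These are matches of letters, not sites. The median fold change was close with and without them: -0.39 in the 25 genes with an ETS match and -0.38 in the other 43, -0.40 and -0.39 with and without an NRF1 match, and -0.37 and -0.39 with and without a YY1 match.

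In the large subunit, 48 of 50 genes were negative, with a median of -0.39, and 24 had every knockout below every control (11.6% of all genes). Mrpl53, a mitochondria-specific protein of the stalk region (ENSMUSG00000030037.9, GRCm38 chromosome 6, 83109040 to 83109939, plus strand), had the lowest fold change of all 77. Its control values were 41.4, 65.3 and 71.0 FPKM, against 33.8, 32.9 and 32.7 FPKM in the knockout libraries. The groups did not overlap, and the knockouts lay closer together than the controls. The difference was -0.78 on the log2 scale (SE 0.21, limma adjusted p = 0.190). Mrpl21, which has a bacterial counterpart (ENSMUSG00000024829.12, chromosome 19, 3282901 to 3292837, plus strand), stood at 30.8, 37.9 and 37.3 FPKM against 25.5, 19.3 and 18.1 FPKM. Its groups did not overlap either (log2 fold change -0.74, SE 0.18, limma adjusted p = 0.160). GENCODE places Mrpl21 partly over Ighmbp2 on the opposite strand, and the sources used here do not state whether the authors' counting used strand.

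Mrpl55 also has a bacterial counterpart. It stood at 29.8, 32.0 and 33.3 FPKM against 24.3, 19.0 and 22.1 FPKM (-0.52, SE 0.15, limma adjusted p = 0.194). Its groups were apart with a gap larger than the range of the controls. Mrpl57, a short mitochondria-specific protein and one of the least abundant named here, stood at 6.87, 8.29 and 9.74 FPKM against 6.52, 4.10 and 4.90 FPKM (-0.60, SE 0.20, limma adjusted p = 0.247). Double knockout replicate 1 came close to the lowest control in this gene.

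The most abundant members per length included both an mRNA near 0 in its fold change and several lower ones. Mrpl52, a mitochondria-specific protein and the most abundant of the 77 (ENSMUSG00000010406.11, chromosome 14, 54426909 to 54429756, plus strand), stood at 160, 190 and 176 FPKM in the controls. Its knockout values of 150, 143 and 200 FPKM span the controls, and the log2 fold change was -0.10 (95% interval -0.52 to 0.32, limma adjusted p = 0.815). Mrpl20, a protein with a bacterial counterpart that is needed early in assembly there, stood at 82.0, 100 and 112 FPKM against 69.1, 67.6 and 72.5 FPKM (-0.47, SE 0.16, limma adjusted p = 0.251). Mrpl30 was likewise apart, at 80.4, 99.3 and 109 FPKM against 76.0, 55.4 and 74.6 FPKM (-0.48).

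In 4 other abundant members the difference was smaller, though still negative, without control replicate 3. Mrpl14, which lies at the subunit interface, stood at 56.7, 76.2 and 131 FPKM against 61.6, 46.3 and 64.4 FPKM, so 2 knockouts were above the lowest control. Its fold change was -0.53 (limma adjusted p = 0.444), and -0.21 without control replicate 3. Mrpl17 stood at 93.1, 84.9 and 149 FPKM against 77.3, 61.8 and 93.6 FPKM (-0.46, and -0.21 without that library). Mrpl33 stood at 60.2, 80.2 and 117 FPKM against 57.7, 59.6 and 69.4 FPKM (-0.41 and -0.16), and Mrpl12 at 89.6, 90.0 and 143 FPKM against 76.4, 69.4 and 94.8 FPKM (-0.40 and -0.17). In each of these 4 genes control replicate 3 was the highest library, and at least 1 of the other controls lay within the range of the knockouts.

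A few large subunit genes stood near 0. Mrpl4, which lines the exit tunnel, stood at 23.7, 25.9 and 18.6 FPKM against 27.1, 21.0 and 20.3 FPKM (0.01, 95% interval -0.42 to 0.44). Mrpl3, which lies near the peptidyl transferase centre, stood at 17.2, 12.5 and 25.3 FPKM against 14.9, 21.2 and 18.5 FPKM (0.03, 95% interval -0.57 to 0.63). The controls of both genes spread more widely than the groups differed. Mrpl44, a protein with a fold related to RNase III, stood at 20.0, 19.9 and 21.0 FPKM against 18.6, 16.6 and 21.7 FPKM (-0.10, 95% interval -0.44 to 0.24). A p over the threshold does not show that these levels were alike.

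**Figure D3:**
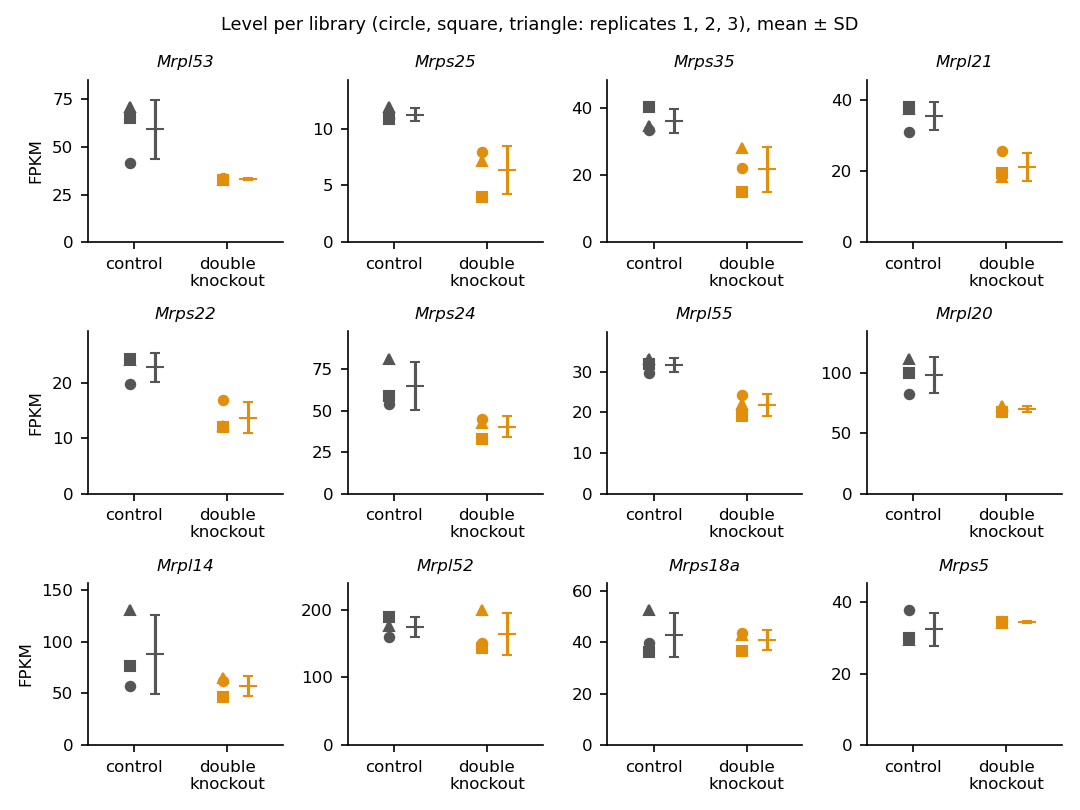
FPKM in each library for 12 named genes (circles, squares and triangles are replicates 1, 2 and 3) with the mean and SD of each group (n = 3) beside the points, each axis starting at 0. Groups are apart in Mrpl53, Mrps25, Mrps35, Mrpl21, Mrps22, Mrps24, Mrpl55 and Mrpl20, and overlap in Mrpl14, Mrpl52, Mrps18a and Mrps5.

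In the small subunit, 26 of 27 genes were negative, with a median of -0.38, and 15 had every knockout below every control (11.6% of all genes). Mrps22, a mitochondria-specific protein whose human gene is mutated in a mitochondrial disease (ENSMUSG00000032459.9, chromosome 9, 98588730 to 98601660, minus strand), stood at 19.9, 24.5 and 24.3 FPKM against 17.0, 12.1 and 12.3 FPKM. The groups were apart, and the log2 difference was -0.70 (SE 0.18, limma adjusted p = 0.176). Mrps35, another mitochondria-specific protein (ENSMUSG00000040112.9, chromosome 6, 147042764 to 147073991, plus strand), stood at 33.6, 40.4 and 34.6 FPKM against 22.0, 14.9 and 28.2 FPKM (-0.75, SE 0.23, limma adjusted p = 0.222). Here the knockouts spread more than the controls. Mrps25, also mitochondria-specific (ENSMUSG00000014551.8, chromosome 6, 92169525 to 92184033, minus strand), stood at 11.0, 10.8 and 11.9 FPKM against 7.92, 3.98 and 7.16 FPKM (-0.78, SE 0.23, limma adjusted p = 0.210). Its controls were tight, and double knockout replicate 2 was far below the rest. Mrps25 has the longest annotated transcripts of the 77, at a median of 6073 bases, and overlaps Nr2c2 on the opposite strand.

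Among small subunit proteins with a bacterial counterpart, Mrps24 stood at 54.1, 59.1 and 81.5 FPKM against 45.3, 33.1 and 42.4 FPKM (-0.66, limma adjusted p = 0.222), and shares its strand with an overlapping gene, Urgcp. Mrps14 stood at 33.5, 40.3 and 37.2 FPKM against 27.6, 20.3 and 28.3 FPKM (-0.54, limma adjusted p = 0.238). In both genes the groups were apart. Mrps21, with the shortest annotated transcripts of the 77 (405 bases) and the most abundant of the small subunit, stood at 91.4, 129 and 146 FPKM against 92.6, 75.3 and 94.1 FPKM (-0.46, limma adjusted p = 0.352), with 2 knockouts just above the lowest control. Mrps5, a protein at the entry of the mRNA channel in bacteria, had the highest fold change of the 77, at 37.9, 30.0 and 29.6 FPKM against 34.8, 34.4 and 34.2 FPKM (0.09, 95% interval -0.25 to 0.44). All of its knockout values lay within the range of the controls.

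Mammals have 3 paralogues of the bacterial protein S18, which occupy different places in the particle. Only Mrps18c was counted among the genes with a bacterial counterpart in the grouping below. Mrps18c, in the small subunit, stood at 46.2, 53.8 and 61.0 FPKM against 39.1, 34.4 and 40.8 FPKM (-0.48, SE 0.16, limma adjusted p = 0.243), with the groups apart. Mrps18b, also in the small subunit, stood at 33.0, 36.8 and 30.5 FPKM against 30.8, 27.5 and 29.4 FPKM (-0.18, limma adjusted p = 0.557), with 1 knockout just above the lowest control. Mrps18a, in the large subunit, stood at 39.8, 36.2 and 52.6 FPKM against 43.6, 36.6 and 42.7 FPKM (-0.05, limma adjusted p = 0.916), and its groups overlapped throughout. The differences between the 3 paralogues were not tested.

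The 46 genes with a bacterial counterpart had a median of -0.40, with 43 negative and 23 with every knockout below every control. The 31 without one had a median of -0.36, with 31 negative and 16 apart in that way, and the difference between these groups was not tested. Over all genes tested, 50.8% were negative and 11.6% had every knockout below every control. Within the 77, the fold change varied little with level (Pearson r = -0.0129 with log2 mean FPKM) or transcript length (r = 0.0166, n = 77 genes each, a description, since the genes share the same 6 libraries).

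Of the 77 genes, 75 were lower in the knockouts in the authors' deposited table and 2 were called there, Mrpl53 (q = 0.0216) and Mrps22 (q = 0.0428), against 4.58% of the genes it tested called in either direction and 1.73% called lower. The median q over the 77 genes in the authors' deposited table was 0.566.

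The result was set beside transcript length and scaling. The members' transcripts are short, at a median of 1047 bases against 1960 for all genes tested. Over all genes the fold change was higher in longer genes (r = 0.246, n = 11791 genes), and the excess of control replicate 3 over the other controls was lower in them (r = -0.205). In the 31 members of 600 to 1000 bases the median fold change was -0.40, against -0.15 for all 1929 genes of that length. In the 11 members over 2500 bases it was -0.39, against 0.11 for all 4434 such genes. The 38 shorter members (405 to 1029 bases) were a median of 0.36 higher in control replicate 3 than in the other controls, and the 39 longer ones 0.16. Without control replicate 3 the shorter and longer members had medians of -0.26 and -0.30. With the trend of length and GC content removed from each library, 72 members were negative (53.5% of all genes), the median was -0.32, 25 had an unadjusted limma p under 0.05 and were lower (7.13% of all genes), and 0 passed the threshold (0.221% of all genes in either direction, 0.11% lower).

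The FPKM of all genes summed to between 702759 and 841745 in controls and between 610618 and 697877 in knockouts. Set to the same sum in each library, the TPM scale, the median of all genes became 0.18 and that of the members -0.17, which is 0.35 below it. On that scale 64 members were negative (30.1% of all genes) and 7 had an unadjusted limma p under 0.05 and were lower (2.84% of all genes). Mrpl44, Mrpl52, Mrps18a and Mrps18b, all near 0 on the FPKM scale, had positive values there. With limma weights estimated for each library, 1 member passed as lower, Mrpl36 (limma adjusted p = 0.0491, chosen after its values were seen), against 4.77% of all genes in either direction and 2.01% lower. The size of the difference therefore depended on the scaling, while the members' median stayed below that of all genes under each of the 18 alternatives run. Each alternative reused libraries on which the family was picked, so this is a description and not evidence for the difference.

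**Figure D4:**
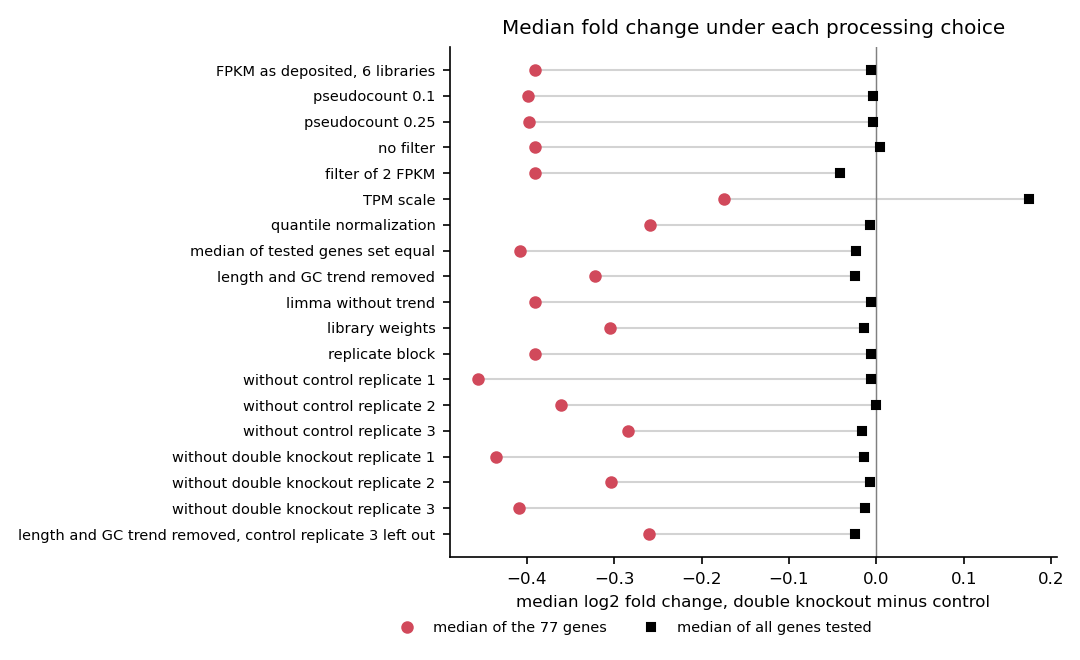
Median log2 fold change (double knockout minus control) of the 77 genes, circles, and of all genes tested, squares, under each processing choice. The members' median runs from -0.46 to -0.17 and lies left of the square in each line, and the square moves from 0 by more than 0.1 only on the TPM scale, to 0.18.

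Markers of liver cell types also differed in level between libraries. The summed FPKM of 6 hepatocyte markers was 61076 to 74773 in controls and 35598 to 58339 in knockouts, with 6 of 6 negative. Their median fold change was -0.31, and 1 of the 6 had every knockout below every control (11.6% of all genes). On the TPM scale 4 of the 6 were negative (30.1% of all genes), with a median of -0.09. The summed FPKM of 6 Kupffer cell markers was 48.6 to 132 and 86.3 to 223, with 6 of 6 positive and a median fold change of 0.82. Of these Kupffer cell markers, 4 were called in the authors' deposited table. The summed FPKM of 5 cholangiocyte markers was 33.7 to 44.2 and 59.1 to 63.7, with 4 of 4 tested ones positive. Most of that sum was Spp1, at 31.1, 34.3 and 42.6 FPKM against 55.2, 59.5 and 60.9 FPKM. Krt19, Epcam and Sox9 averaged 0.894, 0.803 and 0.978 FPKM over the 6 libraries. Krt7, under the filter, averaged 0.205 FPKM in controls and 0.174 FPKM in knockouts. Endothelial markers (6 genes) summed to 42.4 to 53.9 and 32.0 to 58.4, and stellate markers (6 genes) to 50.9 to 96.0 and 49.7 to 124. Markers of neutrophils (4 genes, 0.893 to 50.7 and 1.44 to 17.7) and of lymphocytes (5 genes, 0.780 to 1.58 and 0.814 to 1.93) were low in most libraries. All 4 neutrophil markers were highest in control replicate 3, where they summed to 50.7 FPKM, against 1.98 and 0.893 FPKM in control replicates 1 and 2. No marker was at 0 in every library and none passed the limma threshold with all 6 libraries. Without control replicate 3, 1 cholangiocyte marker passed as higher, Spp1 (limma adjusted p = 0.0370). Double knockout replicate 2, where most members were lowest, had the lowest hepatocyte sum (35598), the highest Kupffer (223), stellate (124) and endothelial (58.4) sums and the lowest FPKM sum of all genes (610618). Without that library 74 members were negative and their median was -0.30. Of 15 immediate-early genes, 14 were highest in control replicate 3, where they summed to 863 FPKM against 59.9 to 205 in the other libraries. The part of these markers in the mitoribosomal result was not tested.

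The same values follow for genes that work with the mitoribosome. All 6 mitoribosomal proteins that carry other names and were found had a negative fold change, with a median of -0.41, and 4 had every knockout below every control (11.6% of all genes). Without control replicate 3 the fold change was negative in 4 of the 6, with Dap3 at 0.0023 and Ptcd3 at 0.14, and on the TPM scale also in 4, with a median of -0.20. Gadd45gip1, a large subunit protein, stood at 15.0, 16.2 and 14.9 FPKM against 11.4, 9.32 and 11.1 FPKM (-0.49, SE 0.14, limma adjusted p = 0.200). Ict1, a peptidyl-tRNA hydrolase built into the large subunit and now named Mrpl58, stood at 41.7, 41.2 and 51.8 FPKM against 34.9, 26.3 and 30.4 FPKM (-0.54, limma adjusted p = 0.222). Aurkaip1, a small subunit protein and the most abundant of the 6, had a fold change of -0.32.

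Of 24 factors of mitoribosome assembly and rRNA modification, 21 were negative (median -0.21), 6 had every knockout below every control (11.6% of all genes) and 0 passed the threshold. On the TPM scale, where 30.1% of all genes were negative and their median was 0.18, 12 of the 24 were negative (median -0.02). Mrm2, an rRNA methyltransferase, had a fold change of -0.40 (limma adjusted p = 0.276), Eral1, a GTPase that binds the small subunit rRNA, -0.34 (limma adjusted p = 0.331), and Rbfa, a small subunit maturation factor and the most abundant of the list, -0.12. Of 14 mitochondrial translation factors, 9 were negative (median -0.14) and 0 passed; without control replicate 3 the median was -0.07, and on the TPM scale 3 were negative with a median of 0.07. Mtif3, an initiation factor, stood at -0.44 (limma adjusted p = 0.297), Slirp, an RNA-binding partner of Lrpprc, at -0.42 (-0.13 without control replicate 3), and Tufm, the elongation factor and the most abundant, at -0.14. Of 20 mitochondrial aminoacyl-tRNA synthetases tested, 13 were negative, with a median of -0.07, and 0 passed (3 negative and a median of 0.13 on the TPM scale). Lars2, the most abundant of them, stood at -0.45 (-0.28 without control replicate 3) and Iars2 at 0.34 (limma adjusted p = 0.377), so the list did not share a direction. Hars2 stood at -0.26. Lars2 averaged 448 FPKM over the 6 libraries, against a median of 8.44 FPKM for the tested synthetases. Whether its row gives the level of its mRNA was not tested.

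Of 17 genes of mitochondrial DNA and RNA synthesis and processing, 12 were negative (median -0.22) and 0 passed, and on the TPM scale 11 were negative (median -0.01). The most abundant, Hsd17b10, a subunit of mitochondrial RNase P, stood at -0.46 (limma adjusted p = 0.313), and Pnpt1, an exoribonuclease, at -0.40 (limma adjusted p = 0.251). Of 30 mitochondrial import and protease genes, 25 were negative, the median was -0.34, 12 had every knockout below every control (11.6% of all genes) and 0 passed. On the TPM scale 19 were negative, with a median of -0.12. Timm10, an intermembrane-space chaperone, stood at 41.3, 52.4 and 50.4 FPKM against 31.2, 29.6 and 35.6 FPKM (-0.56, limma adjusted p = 0.193). Pmpcb, the catalytic subunit of the processing peptidase that removes targeting sequences, stood at -0.50 (limma adjusted p = 0.222), and the chaperonin Hspd1, the most abundant, at 0.08. The difference between these lists and the mitoribosomal genes was not tested.

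**Figure D5:**
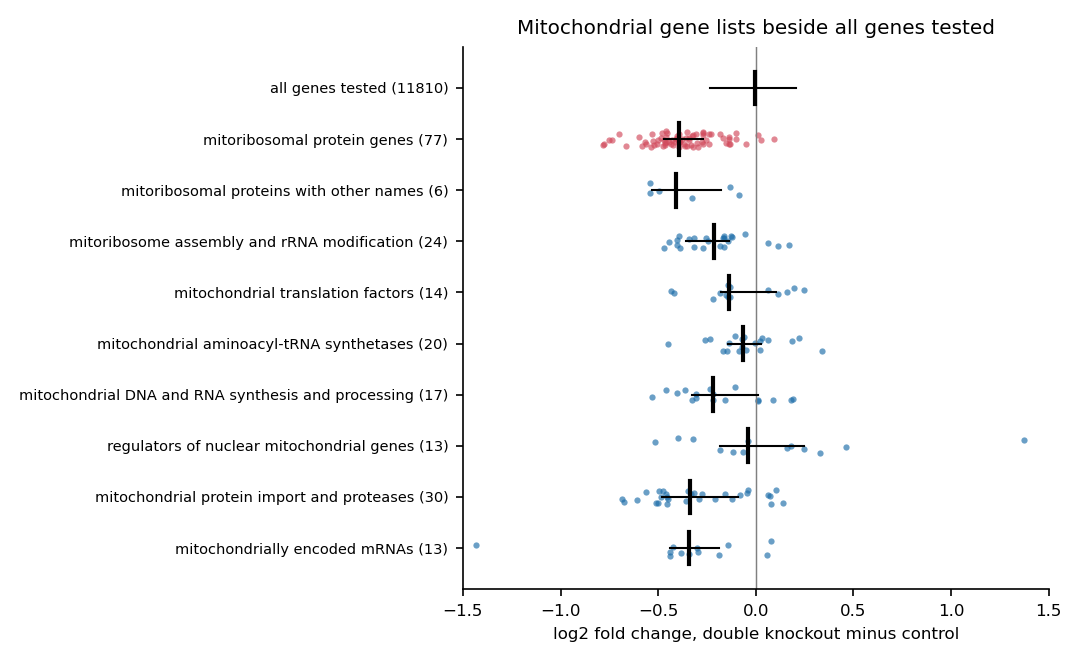
Log2 fold change (double knockout minus control) of each tested gene in 8 lists of mitochondrial genes and in the 77 mitoribosomal genes, with thick bars at the median and thin lines from the first to the third quartile, and the same for all 11810 genes tested. The medians lie between -0.41 and -0.04 in the lists, -0.39 in the 77 genes and -0.01 in all genes, and 1 gene (mt-Nd3, -2.14) lies outside the plotted range.

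The regulators of these genes showed no shared direction: 7 of 13 were negative, the median was -0.04, 0 passed the threshold, and 4 had every knockout above every control (11.3% of all genes). On the TPM scale 4 were negative and the median was 0.17. The mRNAs of the factors whose motifs are printed above, chosen after their values were seen, did not share a direction. Nrf1 stood at 4.57, 4.31 and 4.09 FPKM against 3.89, 3.47 and 3.72 FPKM (-0.18, limma adjusted p = 0.557), every knockout below every control. Gabpa, the DNA-binding subunit of GABP, stood at 10.4, 9.70 and 9.06 FPKM against 11.7, 11.8 and 11.5 FPKM (0.25, limma adjusted p = 0.418), every knockout above every control. Yy1, the most abundant of the list, had a fold change of -0.04, and of the partners of Gabpa, Gabpb2 had 0.46 (limma adjusted p = 0.330) and Gabpb1 -0.32 (-0.11 without control replicate 3). Esrrg, an orphan receptor that activates nuclear mitochondrial genes, stood at 0.753, 0.328 and 1.85 FPKM against 5.49, 2.07 and 4.80 FPKM. Its groups were apart, and the log2 difference was 1.37 (SE 0.37, limma adjusted p = 0.186), and it was called in the authors' deposited table (q = 0.00121).

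On the mitochondrial side, the rRNAs around which the proteins assemble stood lower in 2 of the 3 knockouts, values that were looked at after the others. The small subunit rRNA, mt-Rnr1, was at 1007, 1285 and 1024 FPKM against 1050, 657 and 844 FPKM (-0.40, limma adjusted p = 0.454). The large subunit rRNA, mt-Rnr2, was at 681, 1039 and 892 FPKM against 861, 471 and 618 FPKM (-0.44, limma adjusted p = 0.477). Double knockout replicate 2, the library with the lowest mitoribosomal protein mRNAs, was also the lowest for both, and it stands apart in the cell type markers given above. The libraries came from an mRNA kit, so the rRNA values cover what that kit retained. On the TPM scale the fold changes of mt-Rnr1 and mt-Rnr2 were -0.17 and -0.22. With the trend of length and GC content removed they were -0.09 and -0.17.

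Of the 13 mitochondrially encoded mRNAs, the particle's templates, 11 were negative with a median of -0.34, and 1 passed the threshold as lower (0.144% of all genes). Without control replicate 3 all 13 were negative with a median of -0.55, and on the TPM scale 9 were negative with a median of -0.12. The gene that passed was mt-Nd3, a subunit gene of complex I, listed at 4.33, 7.19 and 5.43 FPKM against 1.08, 0 and 0.588 FPKM (-2.14, limma adjusted p = 0.0453). It did not pass in 11 of the 18 alternatives. It belongs to 6 rows (with mt-Co2, mt-Co3, mt-Atp6, mt-Atp8 and mt-Nd4l, chosen after their values were seen) that are listed between 0 and 12.9 FPKM, while mt-Co1, the most abundant, stood between 12631 and 19639.6 FPKM. Whether these low rows give the level of their mRNAs was not tested, and the medians over the 13 include them. For mt-Co1 the fold change was -0.19 (limma adjusted p = 0.796).

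The depth behind these values was similar in all libraries, at 13200000 to 14100000 fragments, and between 16087 and 16698 genes were above 0. For a member in its least covered library this corresponds to at least 60.3 fragments, with a median of 384, and so to a counting error of 5.10% in the median member and 12.9% in the least covered. Replicates spread more than that, with a median coefficient of variation of 15.3% in controls and 13.3% in knockouts. The deleted genes matched the labels: Nr0b2 stood at 14.7, 17.6 and 18.7 FPKM against 0.216, 0.0734 and 0.293 FPKM (-3.91, limma adjusted p = 0.000277), and Nr1h4 at 59.8, 71.8 and 68.0 FPKM against 21.1, 15.5 and 22.0 FPKM (-1.73, limma adjusted p = 0.0172). Of the 77 genes, 23 (29.9%) overlap a coding gene on the opposite strand in GENCODE vM21 (21.4% of 10946 tested coding genes) and 19 (24.7%) have a coding neighbour that starts within 1000 bases in the other direction (11.5%). Overlap was taken between whole genes, introns included, and shared exons were not looked for. For the overlapping genes, a count without strand could mix both. Besides Mrpl21 and Mrps25, these include Mrpl14, Mrpl33, Mrpl36, Mrpl44, Mrps11 and Mrps18a, and Mrpl53 overlaps a predicted gene on its own strand.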

How the data were processed

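Liver mRNA of 3 control and 3 double knockout libraries was analysed, grouped by the sample titles. Libraries were made from 1 µg of total RNA with a stranded mRNA kit, per the labels' protocols. Cuffdiff 2.2.1, STAR 2.4.2a, Trimmomatic, Picard 1.119, bcl2fastq 2.17.1.14 and the build GRCm38 (mm10) are listed in the submitters' processing notes, with no role for each. The sources used here do not give the annotation, the use of strand or the handling of reads that map to several places. FPKM were deposited for 48699 genes in each library, all 6 columns of which were used, and per the file headers a comparison table with a p-value and a q-value per gene. Pseudogenes named after Mrps36, Mrpl23 and Mrpl48 are listed, so reads of those members may be shared.

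The 11810 genes that averaged 0.5 FPKM or more were tested on log2(FPKM + 1) in limma 3.58.1 (R 4.3.3), with a trend of variance on level and Benjamini-Hochberg adjustment over all of them. The scale understates changes of low genes, and adjusted p-values in the text come from this fit unless the authors' table is named. Fragments were read from the steps of low FPKM values, and cover counting error only. In 27 rows a symbol that had become a date was restored from its identifier. Positions, length and GC content came from GENCODE vM21, promoter windows from RefSeq. The members and the lists were chosen with earlier results of these data known. Named members were the 8 most abundant, the 10 with the smallest p, the 5 highest and the 5 lowest fold changes, the Mrps18 paralogues and those called by the authors. Named list genes were those past the threshold, or else the 2 with the smallest p, and the most abundant. Alternatives covered the pseudocount (0.1, 0.25), the filter (none, 2 FPKM), scaling, a length and GC trend, the limma trend, library weights, a replicate block and leaving out each library.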

Additional observations from a re-analysis of the deposited data

How the results depend on the processing

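Under the 18 alternatives, 0 of 432 comparisons of a named member passed the limma threshold, and the sign turned in 20, in 7 members. With library weights estimated from the data, 1 member was lower past the threshold, Mrpl36 (limma adjusted p = 0.0491), against 2.01% of all genes lower and 4.77% in either direction. In that setting Mrpl4 was at -0.062 and Mrps18a at 0.11. On the TPM scale the members' median was -0.17, the log2 ratio of summed FPKM -0.17, and Mrpl44 (0.11), Mrpl52 (0.12), Mrps18a (0.17), Mrps18b (0.034), Rbfa (0.10), Tufm (0.076), Yy1 (0.17) and mt-Co1 (0.037) turned positive. Quantile normalization turned Mrpl52 (0.12), Mrps18a (0.085), Tufm (0.011), Yy1 (0.010) and mt-Co1 (0.11), a common median Mrpl4 (-0.0085), and removal of the length and GC trend Mrpl52 (0.012) and Mrps18a (0.060). The same removal without control replicate 3, added after seeing the data, gave Mrpl4 -0.0016, Mrps18a 0.17 and Mrps5 -0.0018. The cause of these turns was not tested. Leaving out 1 library gave member medians of -0.46 to -0.28 and lowest limma adjusted p of 0.0863 (Mrpl36, without control replicate 3) to 0.488. The number lower at an unadjusted limma p under 0.05 ranged from 8 (without double knockout replicate 2) to 35 (without control replicate 1), with 10 without control replicate 2. Single genes ranged from -0.20 to 0.28 (Mrpl3), -0.12 to 0.11 (Mrpl4), -0.16 to 0.10 (Mrps18a), -0.16 to 0.069 (Yy1) and -0.053 to 0.19 (Hspd1). Over all genes, calls were 154 higher and 88 lower without control replicate 3 against 20 and 17 with it, and 0 higher and 2 lower without control replicate 2. Same-numbered libraries deviated together for numbers 1 and 3 (r = 0.22 and 0.30) but not for number 2 (-0.08), and control replicate 2 correlated best with double knockout replicate 1 (0.25), so the numbers were not taken to pair the libraries. With the replicate number as a block, 0 members passed and the lowest limma adjusted p was 0.178 (Mrpl53), with 27 genes higher and 23 lower overall. Counting error was below the spread between replicates in the median member.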
